A study of Mus musculus with 3 samples.

Results

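The antioxidant and NRF2 target genes examined here were 31 genes chosen by symbol from the 56980 genes listed for every library. They were chosen with earlier results of these data known, though no measured value entered the rule itself. They comprised the superoxide dismutases and catalase, the glutathione peroxidases, the genes of glutathione synthesis and recycling, the peroxiredoxins with sulfiredoxin, the thioredoxin system, and NRF2 itself with its inhibitor and further targets. The question was whether irradiated marrow cells of mice given cannabidiol (CBD) differed from irradiated cells of mice that were not. The data were 3 droplet single-cell RNA libraries of bone marrow nucleated cells from C57BL/6 mice, flushed from the femurs 14 days after exposure, and male mice were used according to the methods. Control came from mice without irradiation, IR from mice given 6.0 Gy of gamma-irradiation, and IR+CBD from mice given the same dose and 4 intraperitoneal injections of CBD at 50 mg/kg in soybean oil with DMSO around the time of exposure, the methods describing the oil and DMSO alone for solvent controls. Every library pooled sorted cells of 3 mice, remixed at 5:4:1 from the Lin-Kit+, Lin-Kit- and Lin+ fractions, so that shares of cells describe this mix and not bone marrow. Each group was 1 library, so no difference between groups has a replicate check or a test, and every interval below covers counting error only.

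NRF2, encoded by Nfe2l2, is a transcription factor that KEAP1 holds in the cytoplasm and delivers for degradation. Electrophiles and peroxides modify KEAP1, after which NRF2 accumulates, pairs with small MAF proteins and binds the antioxidant response element in the promoters of its target genes. These targets make glutathione, reduce peroxides through thioredoxin and peroxiredoxin, and detoxify quinones and heme. Irradiation generates reactive oxygen species in marrow, and developing red cells and neutrophils both carry a strong antioxidant apparatus of their own, built from different members of these families.

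Promoter sequences from RefSeq (build GRCm38.p6, 250 bases before to 50 bases after each gene's start) were matched for 26 of the 31 members. The antioxidant response element core, TGACNNNGC, was searched on both strands and shares its first letters with AP-1 and cAMP response elements. It occurred in 12.4% of all 32851 promoters of this length and in at least 1 promoter of 14% of the 27025 genes, and 6 of the 26 matched members held it in at least 1 promoter: Sod1, Prdx1, Txnrd1, Gclm, Nfe2l2 and Srxn1. The element bound by C/EBP-ATF dimers, TGATGNAA, occurred in 3.97% of all promoters, in 4.51% of the genes and in 1 member, Slc7a11, which carried it once on each strand. A match describes these letters in this window and is not evidence of binding. The promoters of Slc7a11 (chr3:50443564-50443863, minus strand) and Prdx4 (chrX:155338411-155338710, minus strand) are shown because these members stood highest and lowest in IR+CBD over IR, and those of Gclm (chr3:122245307-122245606, plus strand) and Txnrd1 (chr10:82858956-82859255, plus strand, 1 of 3 promoters listed) because they hold the antioxidant response core. Capitals mark the matched letters, at -66 to -59 and -47 to -40 from the start of Slc7a11, at -134 to -126 in Gclm and at -92 to -84 in Txnrd1, and Prdx4 has none.
Slc7a11: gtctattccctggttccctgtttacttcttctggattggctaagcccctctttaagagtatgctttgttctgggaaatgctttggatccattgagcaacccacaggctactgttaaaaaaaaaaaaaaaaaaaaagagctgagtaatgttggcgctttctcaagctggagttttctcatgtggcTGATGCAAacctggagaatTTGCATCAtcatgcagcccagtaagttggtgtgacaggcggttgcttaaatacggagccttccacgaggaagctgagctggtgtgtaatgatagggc
Gclm: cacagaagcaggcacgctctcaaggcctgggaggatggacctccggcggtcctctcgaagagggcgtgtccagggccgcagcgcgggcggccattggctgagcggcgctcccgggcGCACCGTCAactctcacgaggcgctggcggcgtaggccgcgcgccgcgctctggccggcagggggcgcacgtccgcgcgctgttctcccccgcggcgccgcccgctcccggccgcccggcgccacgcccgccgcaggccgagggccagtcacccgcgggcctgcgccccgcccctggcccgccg
Txnrd1: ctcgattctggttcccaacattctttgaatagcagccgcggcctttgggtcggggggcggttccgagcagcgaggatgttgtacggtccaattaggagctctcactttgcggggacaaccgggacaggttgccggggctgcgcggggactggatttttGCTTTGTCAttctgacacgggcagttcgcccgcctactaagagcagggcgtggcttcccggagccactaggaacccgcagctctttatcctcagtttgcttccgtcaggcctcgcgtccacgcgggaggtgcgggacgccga
Prdx4: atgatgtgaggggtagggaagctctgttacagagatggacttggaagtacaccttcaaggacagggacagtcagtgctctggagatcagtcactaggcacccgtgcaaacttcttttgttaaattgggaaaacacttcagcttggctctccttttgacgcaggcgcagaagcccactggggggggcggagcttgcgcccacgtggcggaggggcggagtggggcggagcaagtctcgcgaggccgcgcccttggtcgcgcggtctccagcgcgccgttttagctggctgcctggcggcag

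After removal of cells with fewer than 200 genes or over 5% mitochondrial UMIs (unique molecular identifiers, 1 per captured RNA molecule), the libraries held 10273 to 10674 cells with 173466089 to 202361682 UMIs, a median of 12479.5 to 14211 UMIs per cell. Between 26 and 34 barcodes of kept cells were shared by any pair of libraries. Levels are CPM, the UMIs of a gene per 1000000 UMIs summed over the cells of a library, in all cells or in cells that passed one of 6 gates on raw UMIs, and cells could pass more than 1 gate. The Mpo gate (5 or more UMIs) was led by granulocyte progenitor markers at 15368 to 18998 CPM, the Klf1 gate (2 or more) by erythroid markers at 6580 to 7324 CPM, the Cd79a gate (2 or more) held B lineage markers at 7977 to 9155 CPM, the Retnlg gate (5 or more) mature neutrophil markers at 238451 to 251428 CPM, and the Siglech gate (3 or more) plasmacytoid dendritic markers at 10087 to 12270 CPM. The Cd79a gate held mature neutrophil markers beside the B lineage ones, at 8929, 7844 and 11402 CPM in Control, IR and IR+CBD, and the Siglech gate held them at 4934, 17528 and 5216 CPM. The gate on Cd34 with Adgrl4 (1 or more of each) is named by its genes alone, since its cells carried granulocyte progenitor markers at 10942 to 13063 CPM, endothelial markers at only 123 to 128 CPM, and passed the Mpo gate in 69.0% to 87.4% of cases. Klf1-gated cells made up 5.49%, 13.98% and 11.5% of cells in Control, IR and IR+CBD, and the Siglech gate held 273, 46 and 79 cells, which limited the members that could be compared there.

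Most members had a marked lineage pattern that all 3 libraries shared. Leaving out Sod3 and Gpx8, which had too few UMIs, 16 of 29 members were highest in the Klf1 gate, and for 13 of these the range over the 3 libraries lay above the range of the next gate. A further 6 were highest in the Retnlg gate, 3 in the Mpo gate, 2 in the Cd79a gate and 2 in the Cd34/Adgrl4 gate, and none in the Siglech gate. The share of all genes highest in each gate was not computed, so these counts cannot show a pattern particular to the members. The erythroid group held Prdx2, the abundant cytosolic peroxiredoxin of red cells, at 1350 to 1503 CPM, which was 3.20 times its mean in the next gate. It also held Gclm, the modifier subunit of glutamate-cysteine ligase, at 388 to 424 CPM (3.16 times the next gate), Txnrd2, the mitochondrial thioredoxin reductase, at 56.9 to 65.3 CPM (3.10 times) and Nqo1, a quinone reductase and classical NRF2 target, at 16.4 to 18.1 CPM (4.47 times). Cells with mature neutrophil markers held a different set. Slc7a11, the cystine-glutamate antiporter that imports the cystine from which glutathione is made, reached 166 to 207 CPM in the Retnlg gate and at most 10.7 CPM in the next gate, the Cd79a gate, a difference of 21.8 times in the means. In cells that passed 1 gate alone, Slc7a11 was at 229 to 289 CPM in the Retnlg gate, 8.40 to 11.8 CPM in the Mpo gate and 1.56 to 1.66 CPM in the Cd79a gate. The place of the Cd79a gate as next thus depended on cells that passed more than 1 gate.

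Prdx5, a peroxiredoxin of mitochondria and peroxisomes, was at 1627 to 1775 CPM in the Retnlg gate and at 121 to 130 CPM in the Klf1 gate, where it was lowest. Gsr, the reductase that regenerates glutathione, Glrx, a glutaredoxin that frees proteins of bound glutathione, and Hmox1, the heme-degrading heme oxygenase, had the same highest and lowest gates. Gsr ranged from 893 to 935 CPM in the Retnlg gate against 96.8 to 103 CPM in the Klf1 gate, Glrx from 265 to 285 CPM against 28.5 to 31.2 CPM, and Hmox1 from 23.1 to 23.5 CPM against 0.79 to 1.44 CPM. Neutrophil-marked cells therefore combined high CPM of Slc7a11, Gsr, Prdx5 and Glrx with low CPM of Prdx3, Prdx4, Sod1 and Gclc, for which the Retnlg gate was the lowest of the 6. The mature neutrophil markers alone took 238451 to 251428 CPM in that gate, which lowers the CPM of all other genes there. Gpx1, the main cytosolic glutathione peroxidase, was highest in the Mpo gate at 1684 to 1821 CPM, with the Cd34/Adgrl4 gate next at 1417 to 1576 CPM. Cat, the peroxisomal catalase, was highest in the Cd79a gate at 43.8 to 48.7 CPM. The ranges of the highest 2 gates overlapped for Prdx1, Prdx4, Txnrd1, Gclc, Keap1 and Gpx7, so that no single gate stood above the others for them.

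**Figure D1:**
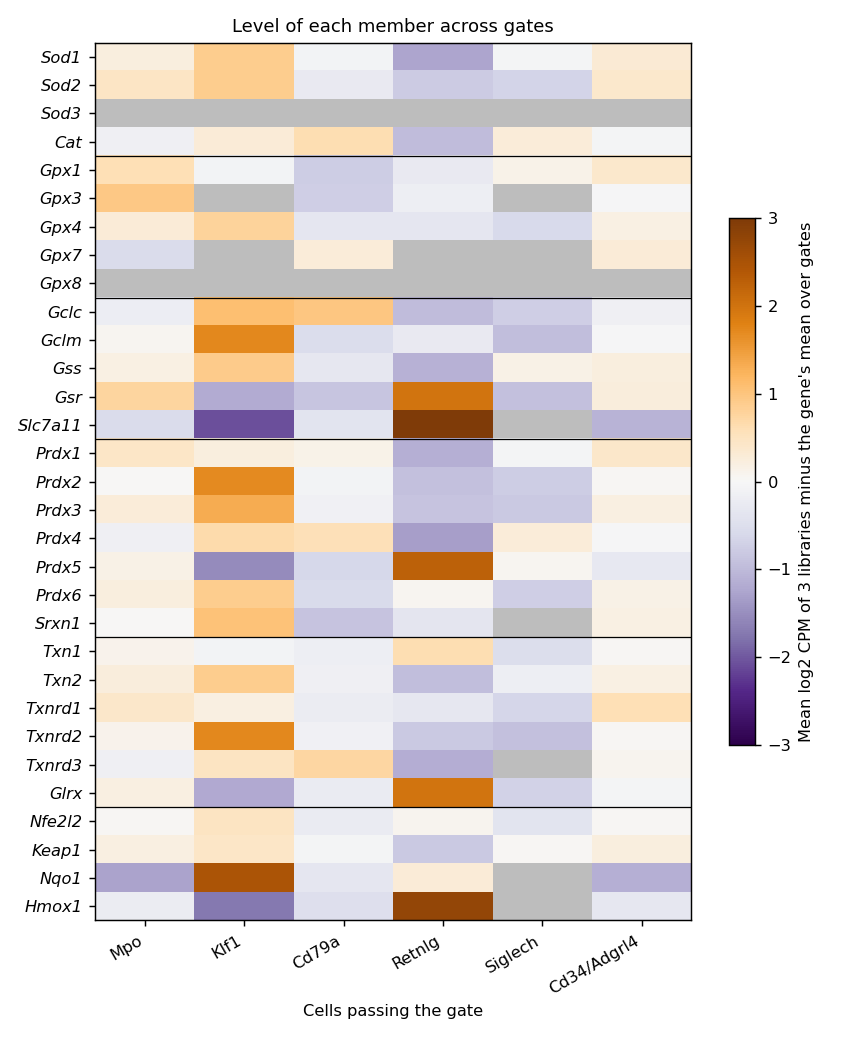
Level of each member (rows, grouped by role) in cells passing each of the 6 gates (columns), as the mean log2 CPM of the 3 libraries minus the gene's own mean over the gates. Grey marks fewer than 50 UMIs over the 3 libraries. Prdx2, Gclm, Txnrd2 and Nqo1 stand out in the Klf1 column, and Slc7a11, Hmox1, Prdx5, Gsr and Glrx in the Retnlg column.

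Over all cells, the members as a whole were at nearly the same level in IR+CBD as in IR. Their summed level was 5613 CPM in Control, 6086 CPM in IR and 6111 CPM in IR+CBD, a ratio of 1.004 of IR+CBD to IR (95% interval 1.002 to 1.007). Of the 31 members, 27 had at least 1000 UMIs in the 2 libraries together. Their median log2 ratio was -0.014, beside -0.0036 for all 11431 genes with as many UMIs, and 12 members lay above 0 and 15 below. Of all these genes, 48.4% lay above 0. A level at least 25% higher in one library than in the other, the threshold of size used throughout, was met by 1 member, Slc7a11, which was higher in IR+CBD, and by no member that was higher in IR. Among all genes, 1.89% were higher and 2.53% lower by that much. The sums by role all lay between 0.972 for NRF2 control and further targets and 1.05 for glutathione synthesis and recycling. The 4 members with too few UMIs were Sod3, the extracellular superoxide dismutase, with 4, 1 and 0 UMIs in Control, IR and IR+CBD (0 UMIs allows up to 0.0173 CPM), Gpx8, an endoplasmic reticulum peroxidase, with 14, 3 and 8 UMIs, its relative Gpx7 with 266, 106 and 87 UMIs, and Srxn1, the sulfiredoxin that revives overoxidised peroxiredoxins, with 317, 383 and 348 UMIs.

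**Figure D2:**
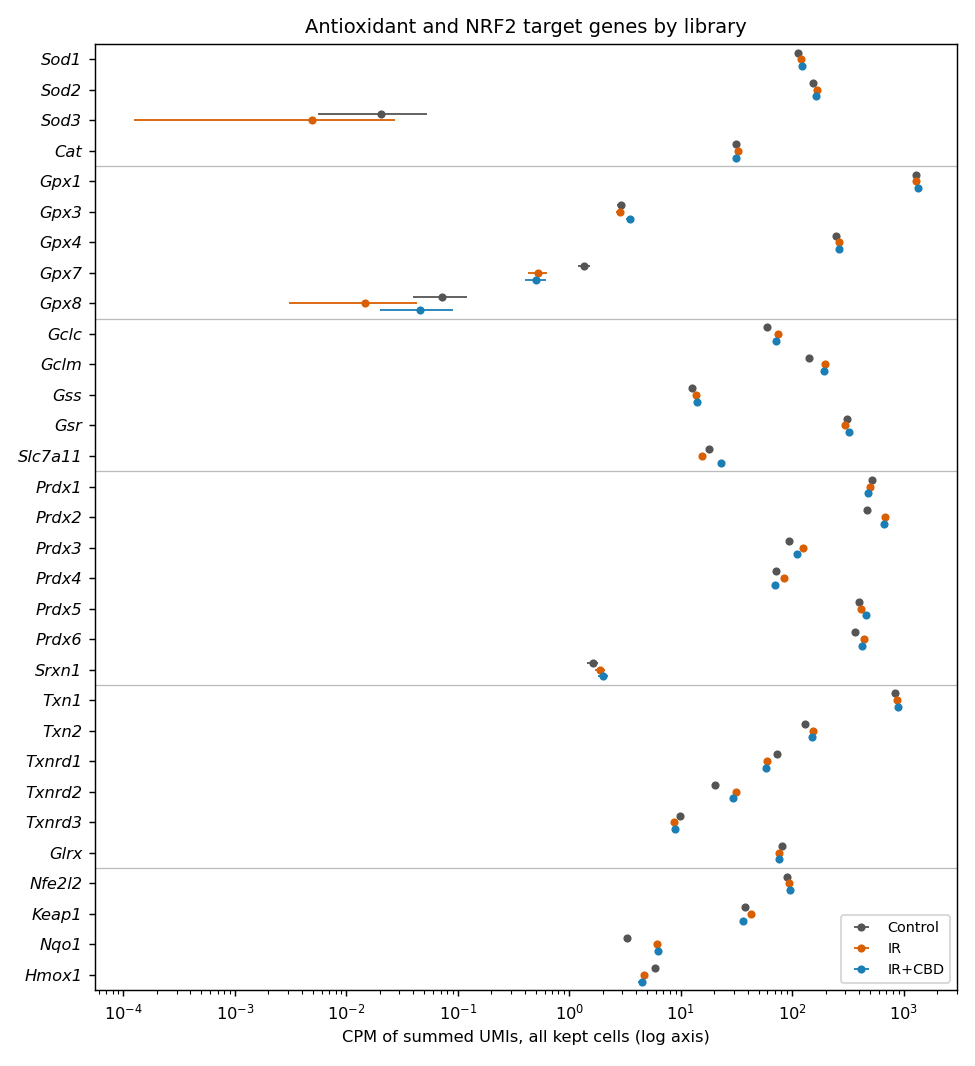
CPM of each member over all kept cells (log axis) in Control, IR and IR+CBD, 1 library each, with exact 95% Poisson intervals for counting error. A library with 0 UMIs (Sod3 in IR+CBD) is not drawn. For most genes the 3 points nearly coincide, Slc7a11 is highest in IR+CBD at 22.8 CPM, and Nqo1 is lowest in Control at 3.32 CPM.

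The superoxide dismutases and catalase differed little between the irradiated libraries. Sod1, the cytosolic dismutase, was at 112, 121 and 122 CPM in Control, IR and IR+CBD. Sod2, the mitochondrial dismutase, was at 154, 166 and 163 CPM, and Cat at 31.6, 32.9 and 31.1 CPM. Their IR+CBD over IR ratios ran from 0.944 for Cat to 1.004 for Sod1, so the transcripts of Sod1, Sod2 and Cat were at close levels in the irradiated libraries. Among the glutathione peroxidases, Gpx1 was at 1304, 1303 and 1348 CPM, and Gpx4, which reduces lipid hydroperoxides and guards against ferroptosis, at 248, 264 and 261 CPM. Gpx3, the secreted peroxidase, was scarce at 2.92, 2.85 and 3.52 CPM, and its ratio of 1.24 (1.10 to 1.39) rested on 610 UMIs against 576. Its ratio was 1.06 with every combination of gates given its Control share of UMIs, a weighting chosen after seeing the data.

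Glutathione synthesis was the one role in which a member passed the 25% threshold. Slc7a11 was at 18.0 CPM in Control, 15.6 CPM in IR and 22.8 CPM in IR+CBD, which was 1.47-fold higher in IR+CBD than in IR (1.40 to 1.54) and 1.27-fold higher than in Control. IR was thus the lowest of the 3 libraries and IR+CBD the highest. The 2 subunits of glutamate-cysteine ligase, the rate-limiting enzyme of the pathway, did not share this pattern. Gclc, the catalytic subunit, was at 59.5, 74.3 and 71.8 CPM, and Gclm at 142, 196 and 194 CPM, with IR+CBD over IR ratios of 0.966 (0.943 to 0.989) and 0.995 (0.980 to 1.01). Gss, which completes glutathione, was at 12.7, 13.8 and 14.0 CPM. Gsr was at 308, 295 and 324 CPM, a ratio of 1.10 (1.08 to 1.11), and shared with Slc7a11 both the order of the libraries and the Retnlg gate as its highest. With every combination of gates given its Control share of UMIs, the ratio was 0.995 for Gsr and 1.32 for Slc7a11.

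The peroxiredoxins moved in different directions and stayed within the 25% threshold, although Prdx4 passed it at 0.77 with each cell weighted equally. Prdx4, the peroxiredoxin of the endoplasmic reticulum, was at 71.9 CPM in Control, 85.2 CPM in IR and 69.9 CPM in IR+CBD, and its ratio of 0.821 (0.802 to 0.840) was the lowest of the 27. Prdx3, the mitochondrial peroxiredoxin that works with Txn2, was at 94.4, 126 and 112 CPM, which gave a ratio of 0.882 (0.866 to 0.899). Prdx5 was at 402, 413 and 456 CPM, which gave 1.10 (1.09 to 1.11). Prdx1, a cytosolic peroxiredoxin, Prdx2 and Prdx6, which is also a phospholipase, had ratios between 0.961 and 0.978. Prdx1 was at 521, 495 and 484 CPM, Prdx2 at 471, 688 and 660.5 CPM, and Prdx6 at 369, 439 and 424 CPM. Prdx4 and Prdx3 were thus lower in IR+CBD than in IR, and Prdx5 was higher, each by an amount larger than counting error. Prdx5 was above 1 in 3 of 6 gates and at 1.005 (0.988 to 1.02) in the Retnlg gate, where its level was highest. With every combination of gates given its Control share of UMIs, a weighting chosen after seeing the data, its ratio over all cells was 1.004.

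The thioredoxin system was nearly level between IR+CBD and IR, with ratios from 0.947 for Txnrd2 to 1.03 for Txnrd3. Txn1, the cytosolic thioredoxin, was at 839, 878 and 882 CPM in Control, IR and IR+CBD, and Txn2, its mitochondrial counterpart, at 129, 154 and 150 CPM. Txnrd1, the cytosolic thioredoxin reductase, was at 72.4, 59.9 and 58.8 CPM, Txnrd2 at 20.1, 31.1 and 29.4 CPM, and Txnrd3, a reductase known best from testis, at 9.84, 8.68 and 8.95 CPM. Glrx was at 80.3, 76.3 and 76.8 CPM. Of the NRF2 control genes, Nfe2l2 was at 90.4, 93.4 and 95.8 CPM, a ratio of 1.03 (1.01 to 1.05), while Keap1, which encodes its inhibitor, was at 37.7, 43.0 and 36.5 CPM, a ratio of 0.850 (0.822 to 0.878). The targets Nqo1, at 3.32, 6.17 and 6.27 CPM, and Hmox1, at 5.87, 4.66 and 4.49 CPM, had IR+CBD over IR intervals that included 1. The transcript of the NRF2 inhibitor was thus lower in IR+CBD, while the ratios for NRF2 itself and for Nqo1 and Hmox1 lay between 0.965 and 1.03, with interval limits from 0.876 for Hmox1 to 1.10 for Nqo1. The Hmox1 ratio depended on the weighting and was 0.726 with each cell weighted equally.

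**Figure D3:**
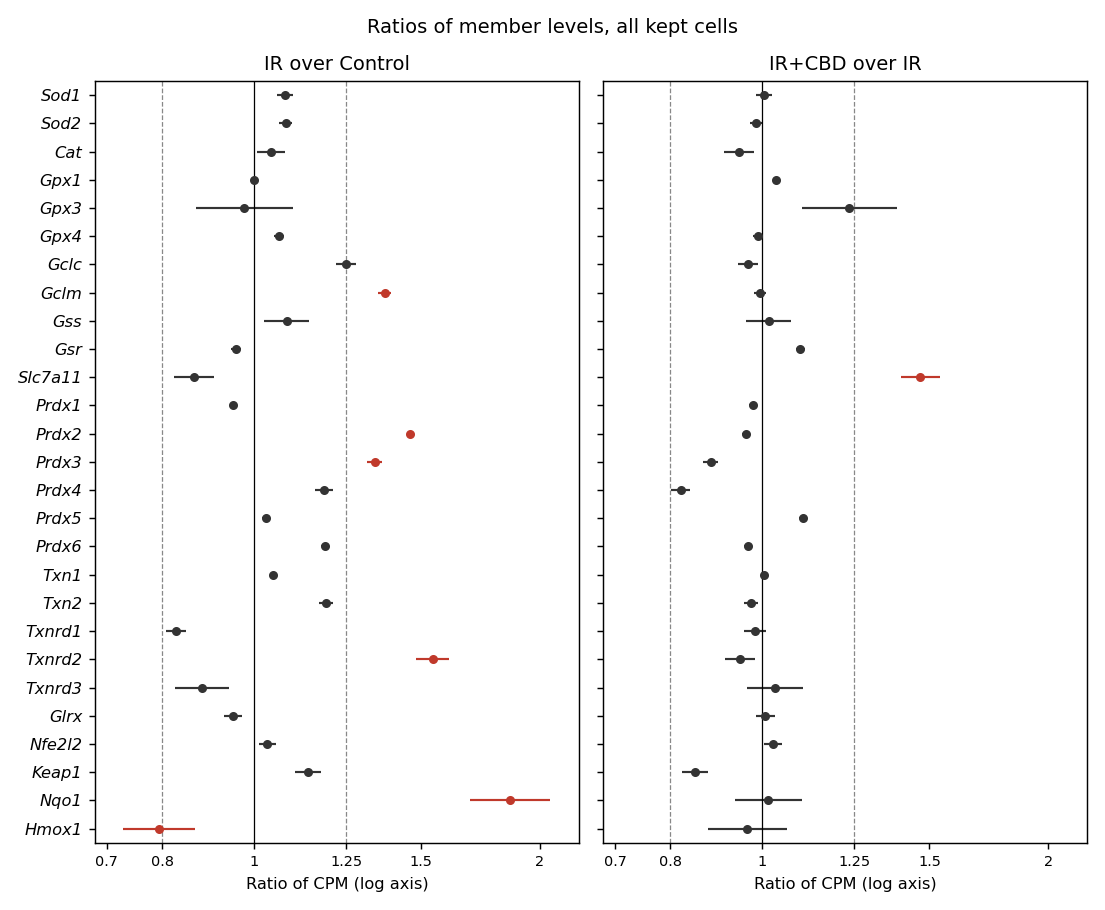
Ratio of CPM over all kept cells (log axis) for the 27 members with enough UMIs, IR over Control at left and IR+CBD over IR at right, with exact 95% intervals for counting error. Dashed lines mark the 25% threshold either way and red points lie past them. At left 5 members are higher and Hmox1 is lower, and at right Slc7a11 alone is past the line.

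Slc7a11 carried most of its UMIs in cells with neutrophil markers. The Retnlg gate held 2457 of its 3150 UMIs in IR and 3029 of its 3962 UMIs in IR+CBD. In that gate it was at 185 CPM in Control, 166 CPM in IR and 207 CPM in IR+CBD, a ratio of 1.252 of IR+CBD to IR (1.19 to 1.32). The gate itself took 7.33% of all UMIs in IR and 8.42% in IR+CBD, and the summed mature neutrophil markers over all cells were at 25719 CPM in IR and 30926 CPM in IR+CBD. In a sum over all cells, more cells of a type and more of the RNA in each of them cannot be told apart. With every combination of gates given its Control share of UMIs, the ratio over all cells was 1.32, the lowest of 8 alternative ways of selecting cells and scaling counts, all of which left it past the 25% threshold. In the cells of the Retnlg gate that passed no other gate it was 1.26 (1.19 to 1.34), with 258, 229 and 289 CPM in Control, IR and IR+CBD. The difference inside the Retnlg gate was thus close to the threshold, and 3 of 7 alternatives put it below, at 1.235 to 1.249.

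Slc7a11 was also higher in IR+CBD than in IR in the Mpo gate (7.56, 5.81 and 9.56 CPM in Control, IR and IR+CBD, ratio 1.65, 1.48 to 1.84), the Cd79a gate (8.95, 5.92 and 10.7 CPM, ratio 1.81, 1.51 to 2.18) and the Cd34/Adgrl4 gate (5.80, 4.09 and 5.62 CPM, ratio 1.37, 1.17 to 1.62). In the Klf1 gate it was at 2.67, 2.71 and 2.41 CPM, a ratio of 0.889 (0.696 to 1.13). Mature neutrophil markers moved with it in these gates, at 5792 CPM in IR and 7126 CPM in IR+CBD in the Mpo gate, 7844 and 11402 CPM in the Cd79a gate and 3099 and 4121 CPM in the Cd34/Adgrl4 gate. Per 1000 UMIs of those markers, Slc7a11 had 0.755 UMIs in IR and 0.942 in IR+CBD in the Cd79a gate, 1.32 and 1.36 in the Cd34/Adgrl4 gate, and 0.695 and 0.825 in the Retnlg gate. In Cd79a-gated cells that passed no other gate it was at 1.56 and 1.66 CPM, a ratio of 1.06 (0.613 to 1.83), and without predicted doublets the Cd79a ratio was 0.944. In cells of the Cd34/Adgrl4 gate alone it rested on 7 UMIs in IR and 2 in IR+CBD, and without predicted doublets the ratio in that gate was 1.04 (0.829 to 1.30). In cells of the Mpo gate alone it stayed higher, at 8.40 and 11.8 CPM, a ratio of 1.40 (1.18 to 1.66), with 0.824 and 1.14 UMIs per 1000 neutrophil marker UMIs. The higher level in IR+CBD therefore remained in cells of the Retnlg gate alone and of the Mpo gate alone, and it was not detectable at this depth in cells of the Cd79a gate alone.

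**Figure D4:**
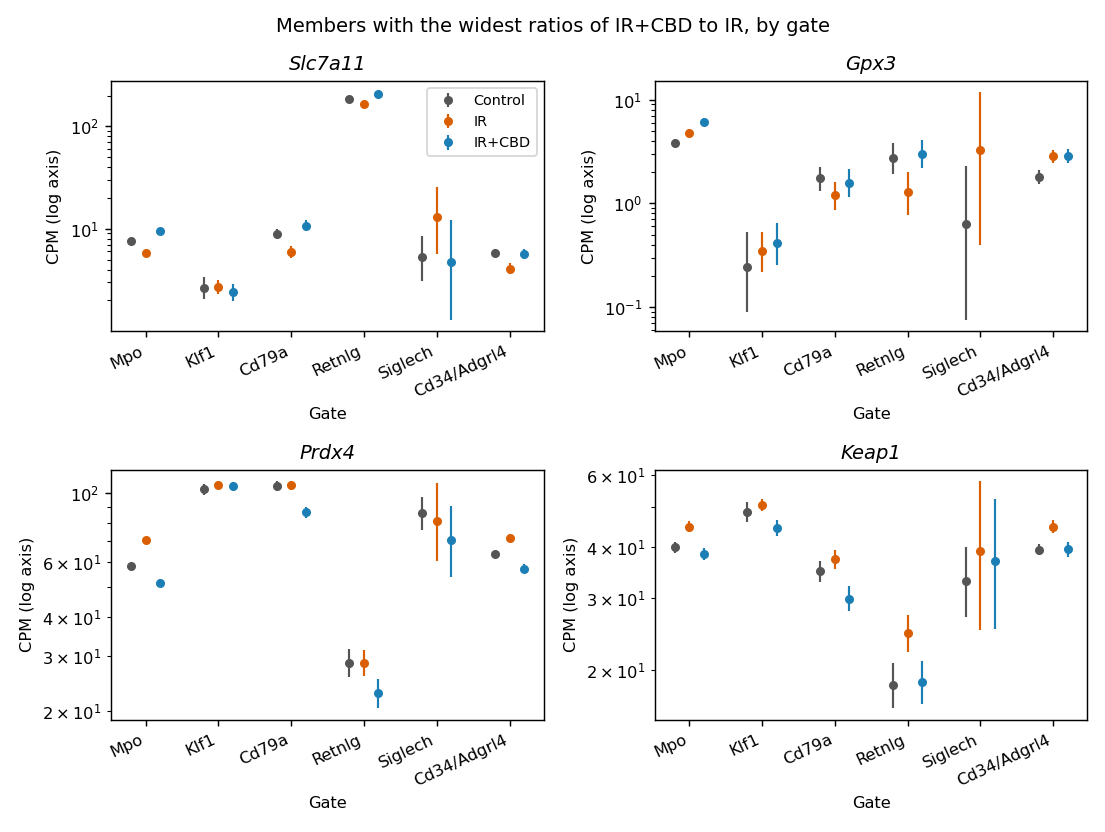
CPM (log axis) of Slc7a11, Gpx3, Prdx4 and Keap1 in cells passing each gate, for Control, IR and IR+CBD, with exact 95% Poisson intervals for counting error, and a library with 0 UMIs not drawn. Slc7a11 is far highest in the Retnlg gate, where IR+CBD is at 207 CPM, and Keap1 is lower in IR+CBD than in IR in every gate, with wide intervals in the Siglech gate.

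Within the 6 gates, 159 pairs of a member and a gate had at least 50 UMIs in IR and IR+CBD together, and in IR+CBD 10 of these were higher and 13 lower past the 25% threshold. In the Mpo gate 5 of 29 members were past it (16.2% of all genes), in the Klf1 gate 0 of 27 (14.8%), in the Cd79a gate 6 of 29 (18.6%), in the Retnlg gate 6 of 27 (17.5%), in the Siglech gate 3 of 18 (38.2%) and in the Cd34/Adgrl4 gate 3 of 29 (15.9%). The members' shares lay below those of all genes in the Klf1, Siglech and Cd34/Adgrl4 gates and above them, by less, in the Mpo, Cd79a and Retnlg gates. The shares of all genes, here and in the gates of IR over Control, take in genes with as few as 50 UMIs. Such genes can pass the threshold by counting error, and most members had many more UMIs. Shares at matched UMIs were not computed, so a lower share does not show that members were steadier than other genes. In the Klf1 gate, where most members were highest, none of the 27 was past the threshold, and their log2 ratios ran from -0.31 to 0.14. The median over members was lowest in the Cd79a gate, at -0.12 on the log2 scale beside 0.026 for all genes, with 21 of 29 members below 0. Of all genes in that gate, 54.5% lay above 0.

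Prdx4 was lower in IR+CBD than in IR in each of the 6 gates. It was at 58.3 CPM in Control, 70.5 CPM in IR and 51.6 CPM in IR+CBD in the Mpo gate, a ratio of 0.731 (0.704 to 0.760), and at 63.7, 71.8 and 57.2 CPM in the Cd34/Adgrl4 gate, a ratio of 0.796 (0.761 to 0.833). In the Retnlg gate it was at 28.6, 28.5 and 22.8 CPM, a ratio of 0.80 (0.691 to 0.925, and 0.862 without predicted doublets), and in the Cd79a gate at 105, 106 and 86.5 CPM, a ratio of 0.82 (0.777 to 0.864). In the Klf1 gate the 3 libraries were nearly level at 103, 106 and 105 CPM. In cells that passed a single gate the ratio was 0.618 (0.576 to 0.663) for the Mpo gate. It was 0.606 (0.341 to 1.05) for the Retnlg gate, on 37 UMIs in IR and 22 in IR+CBD, and 0.936 (0.824 to 1.06) for the Cd34/Adgrl4 gate. These last intervals included 1, as did that of the Retnlg gate without predicted doublets (0.553 to 1.34). In both gates led by granulocyte progenitor markers, IR stood above Control and IR+CBD below it, while in the Retnlg and Cd79a gates Control and IR were level and IR+CBD was lower.

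Keap1 followed the same order of libraries in every gate, above Control in IR and below IR in IR+CBD. It was at 39.9, 44.8 and 38.4 CPM in the Mpo gate (ratio of IR+CBD to IR 0.856, 0.817 to 0.896), at 48.7, 50.7 and 44.5 CPM in the Klf1 gate (0.878, 0.831 to 0.928), and at 34.9, 37.2 and 29.9 CPM in the Cd79a gate (0.802, 0.733 to 0.877). In the Retnlg gate it was at 18.3, 24.6 and 18.6 CPM (0.757, 0.645 to 0.888) and in the Cd34/Adgrl4 gate at 39.4, 44.8 and 39.4 CPM (0.880, 0.832 to 0.930). Only the Siglech gate, with 24 and 31 UMIs, had an interval that included 1. In cells of the Retnlg gate alone the Keap1 ratio was 0.784 (0.589 to 1.04). Without predicted doublets it was 0.82 (0.624 to 1.075) in that gate, so that both of these intervals also included 1. Among the 18 members with enough UMIs in all 6 gates, Prdx4, Glrx and Keap1 were lower in IR+CBD in 6 of 6, against 12.9% of the 4885 genes with as many UMIs, and none was higher in 6 of 6, against 9.91%. Glrx differed least, with ratios from 0.826 to 0.998. For IR over Control, Keap1, Txn1 and Prdx5 of 21 members were above 1 in 6 of 6 gates, with no margin required and Prdx5 all but level in the Cd79a gate at 226.2 and 226.3 CPM, against 7.56% of 7833 genes, and none was below in 6 of 6, against 16.8%. Both comparisons use the IR library and cells could pass several gates, so these counts are not independent.

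Gpx3 was past the threshold in the Mpo gate, where it was at 3.84, 4.79 and 6.10 CPM in Control, IR and IR+CBD (ratio 1.27, 1.12 to 1.45), and in the Retnlg gate, where it was at 2.73, 1.28 and 3.01 CPM on 36, 19 and 44 UMIs (2.35, 1.35 to 4.27). Without predicted doublets these ratios were 1.24 in the Mpo gate and, on 11 and 15 UMIs, 1.35 (0.579 to 3.25) in the Retnlg gate. Hmox1 was lower in IR+CBD in the Mpo gate, at 3.14 CPM in IR and 2.43 CPM in IR+CBD (0.774, 0.645 to 0.928), and nearly level in the Retnlg gate, where its CPM was highest. In the Cd79a gate Prdx3 was at 67.2, 93.5 and 72.9 CPM (0.78, 0.737 to 0.826) and Txnrd2 at 13.4, 21.8 and 16.6 CPM (0.762, 0.676 to 0.859), both highest in IR. Erythroid markers in that gate were also highest in IR, at 464, 1253 and 982 CPM, and in cells that passed the Cd79a gate alone, where they were at 285, 317 and 244 CPM, the ratios were 0.795 for Prdx3 and 0.737 for Txnrd2. Gclc, at 34.4 and 27.1 CPM in the Retnlg gate (0.789, 0.690 to 0.901), and Srxn1, with 46 and 15 UMIs in the Cd79a gate (0.455, 0.236 to 0.830), were above 1 without predicted doublets, at 1.23 and 1.55. Gpx4 in the Siglech gate was at 159 CPM in IR and 105 CPM in IR+CBD on 98 and 88 UMIs (0.659, 0.489 to 0.888), and mature neutrophil markers in that gate were at 17528 and 5216 CPM, whose part in the result was not tested.

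**Figure D5:**
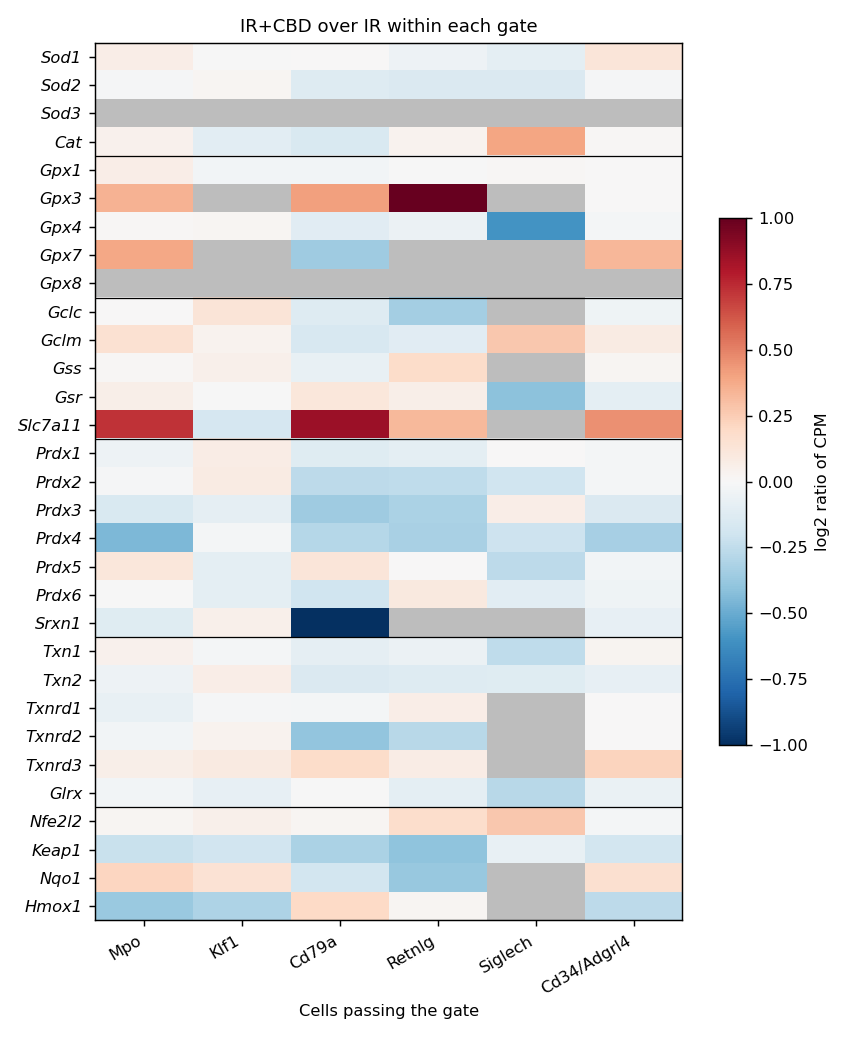
Log2 ratio of CPM of IR+CBD to IR for each member (rows, grouped by role) in cells passing each gate (columns), with grey for fewer than 50 UMIs in the 2 libraries. The colour scale stops at 1 either way. Slc7a11 is above 0 in the Mpo, Cd79a, Retnlg and Cd34/Adgrl4 columns, the rows of Prdx4 and Keap1 are below 0 throughout, and the Klf1 column is nearly white.

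The irradiated libraries differed from Control by more than from each other, and largely in the members that were highest in the Klf1 gate. In IR over Control, 5 of 27 members were higher and 1 lower past the threshold over all cells, where 6.79% of all genes were higher and 12.9% lower, and the median log2 ratio was 0.086 beside -0.034 for all genes. Nqo1 was 1.86-fold higher (1.69 to 2.05), Txnrd2 1.54-fold (1.48 to 1.61), Prdx2 1.46-fold (1.45 to 1.47), Gclm 1.37-fold (1.35 to 1.39) and Prdx3 1.34-fold (1.31 to 1.36). Gclc lay just inside the line at 1.249, and Hmox1 was lower at 0.794 (0.727 to 0.866). All 5 higher members were highest in the Klf1 gate, whose share of UMIs was 12.5%, 31.3% and 27.8% in the order Control, IR and IR+CBD, and erythroid markers over all cells were at 1149, 2407 and 2356 CPM. With every combination of gates given its Control share of UMIs, 0 of the 27 members were past the threshold, and the ratios were 1.01 for Nqo1, 1.10 for Txnrd2, 1.05 for Prdx2, 0.964 for Gclm and 1.06 for Prdx3. The erythroid markers and the Klf1 gate's share of UMIs were higher beside these members in both irradiated libraries, and more erythroid cells and more of these RNAs in each cell cannot be told apart in the sums over all cells.

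Inside the gates, IR over Control gave 18 higher and 18 lower of 162 pairs of a member and a gate past the threshold. In the Klf1 gate 2 of 27 members were past it (23.1% of all genes), and of these Srxn1, at 2.42 CPM in Control and 3.45 CPM in IR (1.43, 1.07 to 1.94), had an interval without 1. There 21 of 27 members lay above 0, beside 46.6% of all genes. In the Mpo gate 2 of 29 were past it (21.9%), Gpx7 at 0.392 (0.267 to 0.565) and Slc7a11 at 0.768 (0.688 to 0.856). In the Cd34/Adgrl4 gate 4 of 29 were past it (26.5%), Gpx3 at 1.58 (1.28 to 1.95), Txnrd3 at 0.764 (0.685 to 0.852), Slc7a11 at 0.706 (0.608 to 0.817) and Gpx7 at 0.368 (0.264 to 0.505). Gpx7 was lower in each of the 3 gates where it had enough UMIs, and Slc7a11 in 4 of 5, the Klf1 gate being the exception at 1.02. In cells of 1 gate alone Gpx7 was at 0.638 (0.21 to 1.80) on 11 and 7 UMIs in the Mpo gate and at 0.723 (0.407 to 1.22) in the Cd34/Adgrl4 gate, and Gpx3 in the Cd34/Adgrl4 gate was at 5.95 (0.852 to 65.7) on 2 and 4 UMIs. Slc7a11 was at 0.827 in cells of the Mpo gate alone and at 0.822 in the Cd34/Adgrl4 gate without predicted doublets, both inside the threshold. In the Siglech gate 9 of 21 were past it (40.8%), and those with intervals without 1 were Prdx5 at 1.54, Txn1 at 1.26, Prdx2 at 0.741 and Gclc at 0.555. In cells of the Siglech gate alone Prdx5 was at 1.35 (1.10 to 1.64) and Txn1 at 1.40 (1.19 to 1.64). Prdx2 was at 0.801 (0.596 to 1.06) and Gclc at 1.13 (0.513 to 2.26) in those cells. Mature neutrophil markers in the whole gate were at 4934 CPM in Control and 17528 CPM in IR, whose part in these ratios was not tested.

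In the Cd79a gate 11 of 29 members were past the threshold in IR over Control (24.8% of all genes), and in the Retnlg gate 8 of 27 (24.6%). In the Cd79a gate Nqo1 rested on 38 UMIs in Control and 133 in IR (ratio 3.08, 2.13 to 4.53), Prdx2 was at 340 and 499 CPM (1.47), Gclm at 69.3 and 102 CPM (1.48), Txnrd2 at 13.4 and 21.8 CPM (1.62), Prdx3 at 67.2 and 93.5 CPM (1.39) and Prdx6 at 204 and 262 CPM (1.29), all members that were highest in the Klf1 gate. The erythroid markers given above were higher beside them in that gate, and in cells that passed the Cd79a gate alone the ratios were 1.13 for Prdx2, 0.95 for Gclm, 1.10 for Prdx3, 1.04 for Prdx6, 1.43 (1.19 to 1.74) for Txnrd2 and, on 12 and 24 UMIs, 1.80 (0.865 to 3.95) for Nqo1. Of these 6 members, Txnrd2 alone thus stayed past the threshold there with an interval without 1. Slc7a11 at 0.661 (0.551 to 0.793), Gpx7 at 0.49 (0.312 to 0.757) and Txnrd1 at 0.80 (0.745 to 0.859) were lower, and Srxn1 was at 1.76 (1.04 to 3.04) on 23 and 46 UMIs. In cells of the Cd79a gate alone Slc7a11 was at 0.956 (0.572 to 1.60), Gpx7 at 0.615 (0.359 to 1.04) and Txnrd1 at 0.815 (0.736 to 0.904), and Srxn1 rested on 6 and 2 UMIs. In the Retnlg gate, erythroid markers were at 606 CPM in Control and 2631 CPM in IR, and Prdx2 was at 164 and 295 CPM (1.80, 1.71 to 1.89). In cells of the Retnlg gate alone, Prdx2 was at 34.1 and 36.0 CPM (1.06, 0.896 to 1.24), with erythroid markers still at 587 and 2569 CPM. Prdx3 at 1.48, Txnrd2 at 1.52, Gclc at 1.47 and Keap1 at 1.34 were higher in that gate, and Txnrd1 at 0.782 and Gpx3 at 0.468 were lower. In cells of the Retnlg gate alone Prdx3 was at 0.969 (0.703 to 1.34) and Txnrd2 at 1.09 (0.565 to 2.15), and without predicted doublets they were at 1.04 and 1.025, all inside the threshold. Gclc in cells of that gate alone was at 1.34 (0.933 to 1.95) and Keap1 at 1.10 (0.83 to 1.46).

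Other genes of the redox pathways were taken from 6 lists. Of 14 partners and regulators of NRF2, 13 had enough UMIs and 1 was past the 25% threshold in IR+CBD over IR, Osgin1, an oxidative stress-induced growth inhibitor, at 3.12 and 4.08 CPM (1.31, 1.17 to 1.46). Of 18 glutathione S-transferases, 14 had enough and 1 was past it, Gstm1, at 108 and 135 CPM (1.26, 1.23 to 1.28). None of 20 further redoxins, methionine sulfoxide reductases and scavengers, 9 NADPH supply genes, 9 iron, heme and cystine genes or 6 NADPH oxidase genes was past it in either direction. Over the 6 lists, 2 of 71 genes tested were higher (2.82%, beside 1.89% of all genes) and 0 were lower (beside 2.53%). Slc3a2, the heavy chain that pairs with the Slc7a11 product, belongs to these lists and was at 119, 103 and 105 CPM in Control, IR and IR+CBD, a ratio of 1.02 (1.001 to 1.04) of IR+CBD to IR. In IR over Control, 9 of the 73 genes tested from these lists were higher (12.3%, beside 6.79% of all genes) and 5 lower (6.85%, beside 12.9%) past the threshold. The metal-binding metallothioneins Mt2 (47.7 and 130 CPM, 2.73-fold) and Mt1 (380 and 548 CPM, 1.44-fold), the biliverdin reductase Blvrb (177 and 410 CPM, 2.31-fold), the iron exporter Slc40a1 (10.6 and 19.4 CPM, 1.83-fold), the glutaredoxin Glrx5 (190 and 289 CPM, 1.53-fold), the selenoprotein Selenow (1.40-fold) and the transferases Gstp3 (2.22-fold), Gstm5 (1.64-fold) and Mgst3 (1.62-fold) were higher. Maff, a small MAF partner of NRF2, was lower at 10.9 and 5.76 CPM (0.528), as were Ltc4s (0.574), Msrb3 (0.422), Selenop (0.791) and Ggt5 (0.565). The erythroid markers, at 1149 CPM in Control and 2407 CPM in IR, were higher beside these genes over all cells. With every combination of gates given its Control share of UMIs, none of the 9 higher genes was past the threshold, with ratios from 0.856 for Gstm5 to 1.24 for Gstp3, while 4 of the 5 lower genes were, Selenop being the exception at 0.908. Under the same weighting Osgin1 and Gstm1 in IR+CBD over IR were inside it as well, at 1.18 and 1.14.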

How the data were processed

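For each library, the authors deposited raw UMI counts, 1 matrix of genes by cells without normalization. The submitters' processing notes name Cell Ranger 4.0 and GRCm39, the file headers name Cell Ranger 7.0.1, and the annotation is not given in the sources used here. The RefSeq promoters are of another build, GRCm38.p6, and only they carry coordinates. The methods removed doublets with DoubletFinder, and here doublets were left in and removed only as an alternative (Scrublet in scanpy 1.11.5, the highest-scoring 0.8% of cells per 1000).

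As in the methods, cells needed 200 genes and at most 5% of UMIs from mitochondrial genes. UMIs were summed per gene, library and gate and divided by the summed total to give CPM (Python 3.11.15, numpy 2.4.6, scipy 1.17.1, pandas 2.3.3, figures with matplotlib 3.10.9). CPM have exact Poisson 95% intervals, ratios exact conditional binomial intervals and shares of cells exact Clopper-Pearson intervals, all for counting error only, and a count of 0 was given a limit of 3 counts. A gene was compared where the 2 libraries held 1000 UMIs together, or 50 UMIs in a gate, and called past the threshold where one level was at least 25% above the other (a ratio of 0.8 or below when lower). With 1 library per group no test was made. The intervals and calls were checked on Poisson counts simulated for IR+CBD and IR over all cells, the model that the intervals assume. Gates and variation between cells were not simulated. The members, gates, marker lists and other redox lists were chosen with earlier results of these data known. All members are named, in gates those past the threshold whose interval excludes 1, and from each other redox list at most 3 genes higher and 3 lower past it. Slc3a2, Selenow and the comparison of members with markers of another lineage, in cells of 1 gate alone, were added after values were seen. Alternatives were a mitochondrial limit of 10%, a minimum of 1000 genes, doublet removal, median-of-ratios size factors, equal weight per cell, a minimum of 1 UMI in each library, a fold of 1.5, Control weights for the gates, technical genes left out of the total, doubled gates and cells of exactly 1 gate.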

Additional observations from a re-analysis of the deposited data

Results flagged for a closer look

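In 3 members, IR over Control was past the 25% threshold with an interval without 1 in opposite directions in different gates. Gclc was at 1.47 in the Retnlg gate and at 0.555 in the Siglech gate, Gpx3 at 0.468 in the Retnlg gate and at 1.58 in the Cd34/Adgrl4 gate, and Prdx2 at 1.47 in the Cd79a gate, 1.80 in the Retnlg gate and 0.741 in the Siglech gate. The difference between the gates was not tested, since each group was 1 library. The Gclc value in the Siglech gate rested on 16 UMIs in IR, and the Gpx3 value in the Retnlg gate on 19 UMIs in IR. None of the 3 members kept opposite calls in cells of 1 gate alone. There Prdx2 was at 1.13 in the Cd79a gate, 1.06 (0.896 to 1.24) in the Retnlg gate and 0.801 (0.596 to 1.06) in the Siglech gate. Gclc was at 1.34 (0.933 to 1.95) in the Retnlg gate and 1.13 (0.513 to 2.26) in the Siglech gate. Gpx3 was at 0.461 (0.156 to 1.24) in the Retnlg gate and rested on 2 and 4 UMIs in the Cd34/Adgrl4 gate.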

How the results depend on the processing

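Each group was 1 library of pooled mice, so no spread between mice, no leaving out of a replicate and no test between groups could be had, and precision is that of counting alone. No paired analysis was possible because each group held a single library. Depth limits Sod3, Gpx7, Gpx8 and Srxn1 over all cells and most members in the Siglech gate of IR, which held 46 cells. Weighting combinations of gates by Control shares of UMIs was chosen after seeing the data and used the 16 combinations with at least 20 cells in every library, with 95.4% to 97.4% of UMIs.

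The number of members past the fold line over all cells in IR+CBD over IR was 1, and became 3 with each cell weighted equally, 2 with a minimum of 1 UMI in each library and 0 at a fold of 1.5. With each cell weighted equally, Prdx4 at 0.77 and Hmox1 at 0.726 joined Slc7a11. For IR over Control the number was 6, and became 2 at a fold of 1.5, 1 with gates weighted by Control shares of cells and 0 with combinations weighted by Control shares of UMIs. Over the gates, 23 pairs past the line in IR+CBD over IR became 5 at a fold of 1.5 and 15 in cells of exactly 1 gate, and 36 in IR over Control became 15 at a fold of 1.5. The median log2 ratio of members in the Siglech gate in IR+CBD over IR went from -0.11 to -0.34 with doubled gates. In IR over Control, the median in the Retnlg gate turned from 0.078 to -0.035 with each cell weighted equally and to -0.0005 in cells of exactly 1 gate, and that in the Cd34/Adgrl4 gate went from 0.056 to 0.16 in such cells. Other medians, over all cells included, stayed within the order-statistic 95% interval of the members' median.

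Of the single ratios past the 25% threshold, those that turned to the other side of 1 in IR+CBD over IR were Slc7a11 in the Cd79a gate (0.944 without predicted doublets) and in the Cd34/Adgrl4 gate (0.276 in cells of exactly 1 gate), Srxn1 in the Cd79a gate (1.55 and 1.39 under the same alternatives) and Gclc in the Retnlg gate (1.23 and 1.10). In IR over Control they were Gclm over all cells (0.964 with combinations weighted) and in the Cd79a gate (0.95 in cells of exactly 1 gate), Srxn1 in the Cd79a gate (0.844 with each cell weighted equally, 0.30 in cells of exactly 1 gate), Prdx3 in the Retnlg gate (0.969) and Gclc in the Siglech gate (1.13) in cells of exactly 1 gate. Among the ratios over all cells inside the threshold, 10 members turned in each comparison: Sod1, Sod2, Gpx4, Prdx6, Txn1, Txnrd2, Glrx, Gclc, Gclm and Gsr in IR+CBD over IR, from ratios of 0.947 to 1.10 to values of 0.944 to 1.05, and Sod1, Sod2, Cat, Gpx1, Gpx3, Gpx4, Glrx, Gsr, Gss and Nfe2l2 in IR over Control, from 0.95 to 1.08 to values of 0.957 to 1.15. The causes were not tested.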
